A study of Danio rerio with 4 samples.

Results

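The let-7 family was followed through the small RNA libraries of sorted neural crest cells (NCC) and of the remaining cells (non-NCC) of zebrafish embryos. Its 10 members were taken by name, as the rows of the main arm, out of 372 miRNA rows in each of the deposited tables. They are dre-let-7a, dre-let-7b, dre-let-7c-5p, dre-let-7d-5p, dre-let-7e, dre-let-7f, dre-let-7g, dre-let-7h, dre-let-7i and dre-let-7j, written below without the species prefix.

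let-7 was discovered in the nematode Caenorhabditis elegans as a regulator of developmental timing. Its members carry the same seed, the stretch near the 5′ end by which a miRNA pairs with the 3′UTR of its target mRNAs, and the family lowers the output of genes that keep cells dividing. In vertebrate embryos, mature let-7 is scarce at early stages, when the RNA-binding protein Lin28 blocks the processing of its precursors, and becomes abundant as tissues differentiate. Several let-7 genes lie beside genes of miR-99, miR-100 or miR-125, and such neighbours can be transcribed together.

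All libraries came from embryos of the line Tg(sox10:eGFP,mRFP), in which fluorescent proteins are driven by the sox10 promoter. Cells with GFP made up the NCC and cells without it the non-NCC, sorted at 28 hpf and at 16 hpf, and each of the 4 groups is 1 library. NCC here thus means cells with sox10 promoter activity, which is also known from the otic vesicle. With no replicate library, the spread between sorts was not measured, and every interval below compares 2 libraries and covers counting error only.

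The deposited values are normalized counts, and each is a whole multiple of the value of 1 read in its library, so the reads could be recovered. The 4 libraries differed widely in depth. At 28 hpf, 6502 miRNA reads came from NCC and 1099312 from non-NCC, and at 16 hpf, 2340716 came from NCC and 140132389 from non-NCC. The miR-430 family, which clears maternal mRNAs in the early embryo, held 72.8% of them in NCC and 66.7% in non-NCC at the later stage, and 92.0% in NCC and 91.7% in non-NCC at the earlier one. At 28 hpf, 1 read stood for 11.4 normalized counts of NCC and 0.0877 of non-NCC, and at 16 hpf for 7.72 of NCC and 0.130 of non-NCC. A miRNA without reads can have had a level of up to 3 reads, and this detection limit came to 34.2 (NCC) and 0.263 (non-NCC) normalized counts at 28 hpf and to 23.2 (NCC) and 0.389 (non-NCC) at 16 hpf.

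let-7 was a minor family in every library. At 28 hpf, the members together had no read in NCC, against 164 reads of 6 members in non-NCC, or 149 reads per 1000000 miRNA reads (RPM; 95% Clopper-Pearson interval from 127 to 174). The absence from NCC at 28 hpf allows a level of up to 461 RPM, because the library held so few reads. At 16 hpf, let-7 had 325 reads of 9 members in NCC, or 139 RPM (from 124 to 155), against 7384 reads of all 10 members in non-NCC, or 52.7 RPM (from 51.5 to 53.9). In RPM, the limit of NCC at 28 hpf lies above each of these levels, so that a like level could have gone undetected there.

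The plot of RPM sets the members side by side in the 4 libraries. By reads as listed, let-7a was the most abundant member in each of the 3 libraries with let-7 reads. It ranked 59th of 237 miRNAs with reads in non-NCC at 28 hpf, 36th of 226 in NCC at 16 hpf and 54th of 339 in non-NCC at 16 hpf. let-7a stood at 104 RPM in non-NCC at 28 hpf, 88.4 RPM in NCC at 16 hpf and 34.7 RPM in non-NCC at 16 hpf. At 16 hpf, let-7f stood at 21.8 RPM in NCC against 0.664 RPM in non-NCC, and let-7g at 9.40 RPM in NCC against 12.1 RPM in non-NCC.

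**Figure D1:**
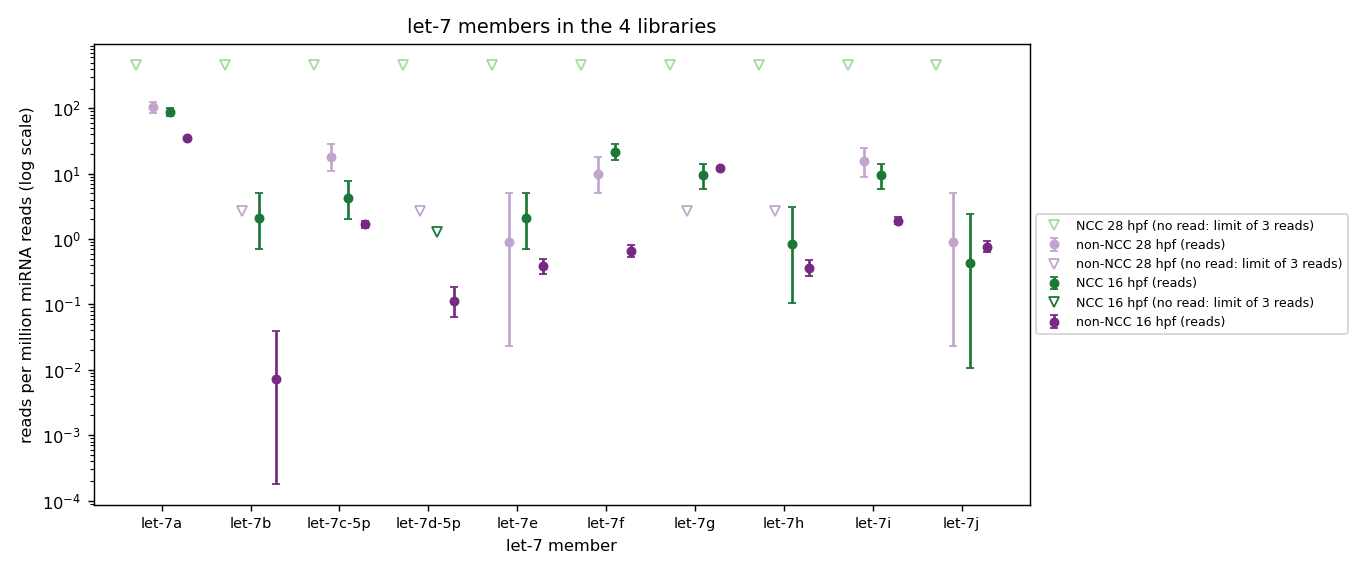
RPM (reads per 1000000 miRNA reads, log scale) of each let-7 member in the 4 libraries. Points are single libraries with 95% Clopper-Pearson intervals, and open triangles mark the limit of 3 reads of a library in which a member had no read. The limit of the NCC library at 28 hpf, 461 RPM, lies above every let-7 level that was measured.

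At 16 hpf, let-7 was overrepresented in NCC. The members summed to 2509 normalized counts in NCC, against 956 in non-NCC, a ratio of 2.62-fold (log2 ratio 1.39, from 1.23 to 1.55). Had the level been the same, 124 NCC reads were to be expected in place of the 325 counted. In bulk libraries such as these, more let-7-expressing cells and more let-7 per cell cannot be told apart. More than 2-fold higher values in NCC were found for 7 of the 9 members with reads in both libraries, beside 26.7% of all 225 miRNAs found in both. At an equal level, let-7b, let-7e, let-7f and let-7h would have had 0.0168, 0.906, 1.56 and 0.856 NCC reads. With so few expected, needing an NCC read favours high ratios among these members, and nothing is read from this count. More than 2-fold higher values in non-NCC were found for 0 of the 9 members, beside 25.3% of the 225 miRNAs. As at least 1 NCC read, worth 7.72 normalized counts, was needed, let-7b, let-7e, let-7f, let-7h and let-7j could not reach this. Their non-NCC levels were 0.130 to 13.9 normalized counts, so nothing is read from the 0 either. The median log2 ratio was 1.34 over the 9 members selected by having reads in both libraries, and nothing is read from it. Over the 225 miRNAs it was 0.00, a value that the normalization sets in advance. Among those with 10 reads or more in each library, 4 of 5 members exceeded 2-fold in NCC, beside 29.1% of 103 miRNAs. At an equal level, let-7c-5p, let-7f and let-7i would have had 3.96, 1.56 and 4.48 NCC reads. They thus passed this filter only because their NCC reads were high, and nothing is read from this last count either.

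The reads of the 2 libraries were also compared for each miRNA by an exact binomial test (two-sided, Benjamini-Hochberg adjustment over the 340 miRNAs with reads at this stage). This test called 6 of the 10 members higher in NCC, beside 14.7% of all miRNAs tested, and 0 members lower, beside 17.9%. At an equal level, let-7a and let-7g would have had 81.7 and 28.4 NCC reads, the other members at most 4.48. For those others a lower level was hardly detectable, so nothing is read from the 0. The 6 called higher were let-7a, let-7b, let-7c-5p, let-7e, let-7f and let-7i. The plot of log2 ratios gives their intervals. Those of let-7a, let-7b, let-7f and let-7i lay wholly above 2-fold.

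**Figure D2:**
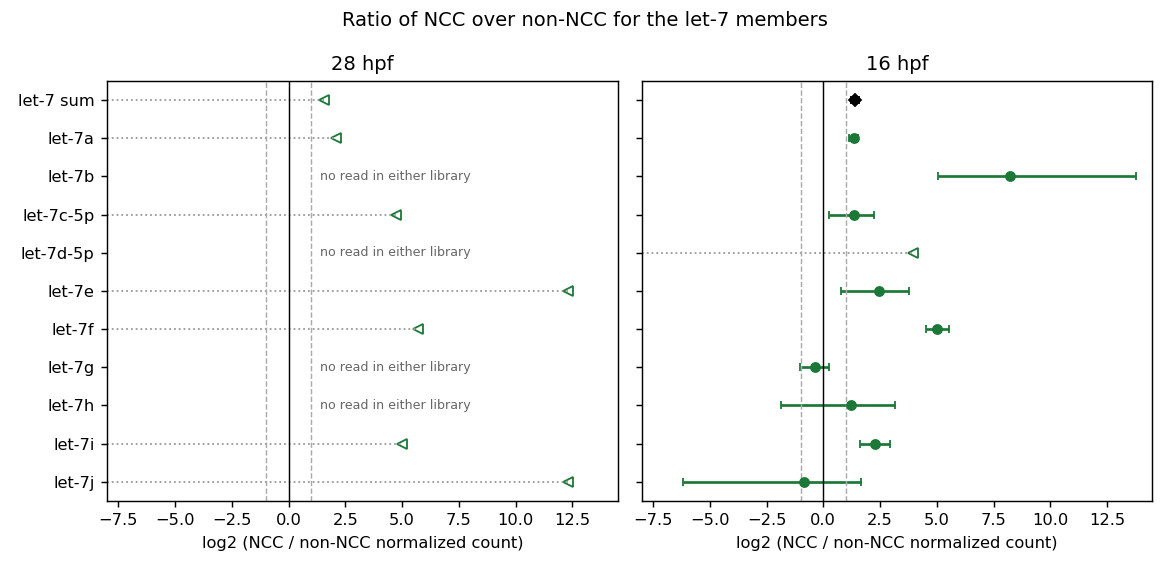
Log2 ratio of NCC over non-NCC normalized counts for the let-7 sum and for each member at 28 hpf (left) and 16 hpf (right), with 95% Clopper-Pearson intervals as bars and 2-fold limits as dashed lines. Open triangles mark the upper end of the interval where NCC had no read. At 16 hpf, let-7f and let-7b stand farthest to the right, and let-7g and let-7j lie below 0 with intervals that include it.

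As listed, let-7a held most of the let-7 reads. It had 207 reads in NCC (1598 normalized counts) and 4867 reads in non-NCC (630 normalized counts). Its ratio of 2.53-fold (log2 1.34, interval 1.13 to 1.54, adjusted p = 2.08e-29 by the exact binomial test) was close to that of the sum. The RefSeq gene table of GRCz12tu, a zebrafish assembly, lists 6 precursor genes of let-7a, and its reads cannot be assigned to single ones. With the reads of each member divided by its number of precursor genes, let-7a was no longer the leading member at 16 hpf. It then held 25.3% of let-7 in NCC, below the 37.4% of let-7f, and 34.4% in non-NCC, below the 35.9% of let-7g. The 207 and 4867 reads of let-7a were not multiples of 6, which counting every read at all 6 genes would have given. Its 114 reads in non-NCC at 28 hpf were a multiple of 6.

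let-7c-5p lay near let-7a in ratio but rested on few reads. It had 10 reads in NCC (77.2 normalized counts) and 236 in non-NCC (30.6 normalized counts), 2.53-fold higher in NCC (log2 1.34, interval 0.26 to 2.24, adjusted p = 0.0266 by the exact binomial test). It has 2 precursor genes, and its reads were even in every library. With the reads halved, as would be needed if each had been counted at both genes, the interval ran from -0.31 to 2.60 and the call was lost (exact binomial test, adjusted p = 0.148). It was also lost with edgeR's TMM scaling in place of the deposited one (exact binomial test, adjusted p = 0.0861).

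let-7f departed most from the rest of the well-covered members. It had 51 reads in NCC (394 normalized counts) and 93 reads in non-NCC (12.0 normalized counts). Had its level been the same in both, 1.56 NCC reads were to be expected. The ratio was 32.7-fold (log2 5.03, interval 4.51 to 5.54, adjusted p = 1.15e-51 by the exact binomial test). let-7f thus ranked 1st among the 103 miRNAs that had 10 reads or more in each library. In that set, let-7i ranked 10th, let-7a 23rd, let-7c-5p 24th and let-7g 65th. With 1.56 NCC reads at an equal level, let-7f entered the set only through the NCC reads that also set its ratio. The same holds for let-7i and let-7c-5p, so the ranks are a description only. In the gene table, the single let-7f gene lies next to let-7a-1, one of the let-7a genes.

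let-7i had 22 reads in NCC (170 normalized counts) and 267 reads in non-NCC (34.6 normalized counts). Its normalized count was 4.91-fold higher in NCC (log2 2.30, interval 1.60 to 2.92, adjusted p = 2.56e-08 by the exact binomial test). Its interval lay above that of let-7a and below that of let-7f. The single let-7i gene has no other miRNA gene within 25 kb.

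let-7g had as many NCC reads as let-7i but was far more abundant in non-NCC. Its 22 reads in NCC (170 normalized counts) stood against 1692 reads in non-NCC (219 normalized counts). The log2 ratio was -0.37, with an interval from -1.05 to 0.24, so that no difference could be detected (adjusted p = 0.521 by the exact binomial test). This interval did not reach those of let-7a, let-7f and let-7i. let-7g was the second most abundant member in non-NCC at 16 hpf. Its 2 precursor genes and even reads give the same uncertainty as for let-7c-5p, and with halved reads the interval ran from -1.38 to 0.48.

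The remaining members had at most 5 NCC reads each. let-7e had 5 reads in NCC (38.6 normalized counts) and 54 in non-NCC (6.99 normalized counts), 5.52-fold higher in NCC (log2 2.46, interval 0.78 to 3.78, adjusted p = 0.00985 by the exact binomial test). let-7b had 5 reads in NCC and 1 in non-NCC, where an equal level would have given 0.0168 NCC reads. Its ratio of 298-fold has an interval from 33.3 to 14094, since it rests on 1 non-NCC read (exact binomial test, adjusted p = 3.79e-08). The let-7b and let-7e genes each lie next to a let-7a gene, let-7a-3 and let-7a-5.

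For let-7h, let-7j and let-7d-5p, no difference was detectable at this depth. let-7h had 2 reads in NCC and 51 in non-NCC (log2 ratio 1.22, from -1.86 to 3.15), and let-7j had 1 read in NCC and 107 in non-NCC (log2 ratio -0.84, from -6.16 to 1.66). let-7d-5p had no read in NCC and 16 in non-NCC. Its 2.07 normalized counts in non-NCC lie under the NCC limit of 23.2. The opposite arms listed in the tables, let-7c-3p and let-7d-3p, had no NCC read at either stage. In non-NCC, let-7c-3p had 2 reads at 28 hpf and 13 at 16 hpf, and let-7d-3p had 2 and 10.

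The plot of ratio against NCC reads places the members among all miRNAs of this stage. The ratios of miRNAs with a handful of NCC reads scattered widely in both directions, and let-7b, let-7e, let-7h and let-7j belong to this range of depth.

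**Figure D3:**
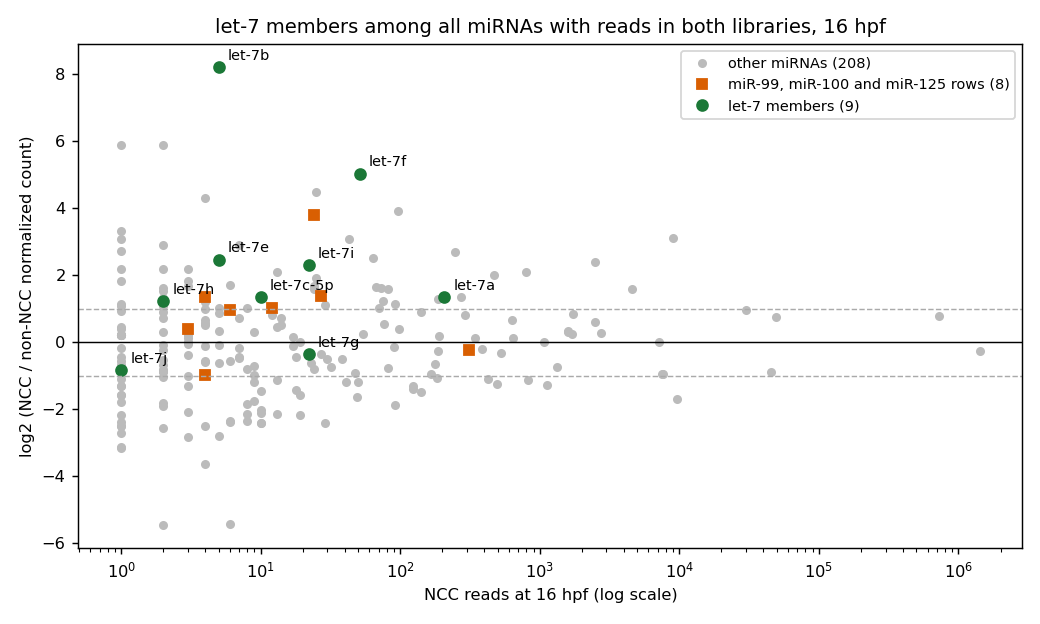
Log2 ratio of NCC over non-NCC normalized counts at 16 hpf against NCC reads (log scale) for the 225 miRNAs found in both populations, 1 library each. let-7 members are green, rows of miR-99, miR-100 and miR-125 orange, and dashed lines mark 2-fold. let-7f, at 51 NCC reads and a log2 ratio of 5.03, stands highest among the miRNAs with 10 reads or more in each library. It entered that set only through its high NCC reads.

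The balance of the members within a library does not depend on the scaling between libraries. At 16 hpf, let-7a held a like share in both populations, 63.7% of the let-7 reads in NCC (from 58.2 to 68.9) and 65.9% in non-NCC (from 64.8 to 67.0). let-7f held 15.7% in NCC (from 11.9 to 20.1) and 1.26% in non-NCC (from 1.02 to 1.54). For each 100 reads of let-7a there were 24.6 reads of let-7f in NCC and 1.91 in non-NCC. let-7g went the other way, with 6.77% in NCC (from 4.29 to 10.1) and 22.9% in non-NCC (from 22.0 to 23.9). At the balance of the non-NCC library, 4.09 NCC reads of let-7f and 74.5 of let-7g would have been expected, against the 51 and 22 counted. let-7i held 6.77% in NCC and 3.62% in non-NCC (from 3.20 to 4.07), and let-7c-5p 3.08% and 3.20%.

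The balance in non-NCC also differed between the stages. Each stage has 1 non-NCC library, and the shares of the stages are set side by side without a test. let-7a held 69.5% of the let-7 reads of non-NCC at 28 hpf (from 61.9 to 76.5), close to its share at 16 hpf. let-7g had no read at 28 hpf, where 37.6 would have been expected from its share at 16 hpf. Its 0 of 164 let-7 reads allow a share of up to 1.83%. let-7c-5p held 12.2% at 28 hpf (20 reads, from 7.61 to 18.2), against 3.20% at 16 hpf (from 2.81 to 3.62). let-7i held 10.4% at 28 hpf (17 reads) against 3.62% at 16 hpf, and let-7f 6.71% (11 reads) against 1.26%. let-7e and let-7j had 1 read each at 28 hpf, and let-7b, let-7d-5p and let-7h had none.

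**Figure D4:**
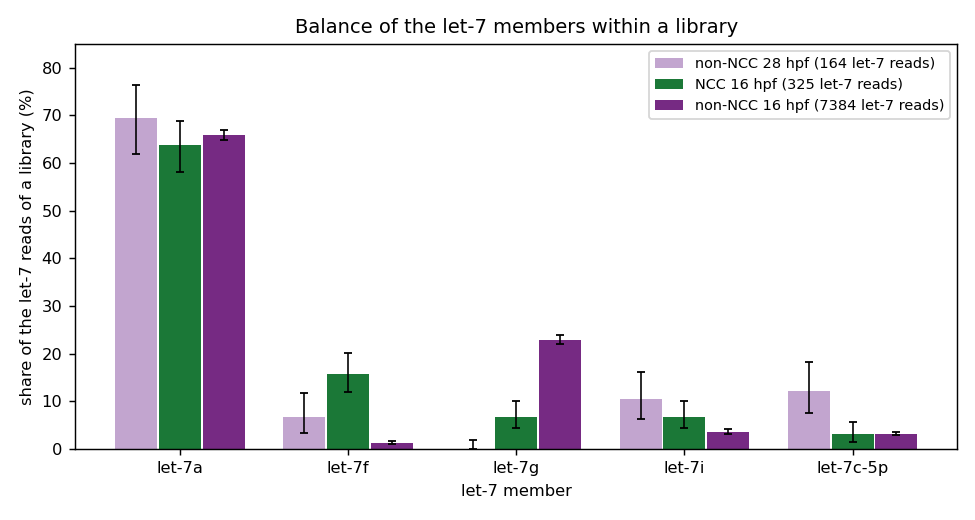
Share (%) of the 5 best-covered members in the let-7 reads of non-NCC at 28 hpf, of NCC at 16 hpf and of non-NCC at 16 hpf. Bars are single libraries, and error bars are 95% Clopper-Pearson intervals, or run to the limit of 3 reads for let-7g at 28 hpf, which had none. let-7a takes 63.7% to 69.5% in these libraries, whereas at 16 hpf let-7f is higher and let-7g lower in NCC than in non-NCC.

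The share of the family in non-NCC depended on what it was taken over. let-7 had 149 RPM at 28 hpf and 52.7 RPM at 16 hpf. Per 1000000 reads outside the miR-430 family, it had 448 reads at 28 hpf (from 382 to 522) and 638 at 16 hpf (from 624 to 653), so that the order of the stages turned round. In NCC at 16 hpf, let-7 had 1732 reads on this scale (from 1549 to 1931). The NCC library at 28 hpf held 1768 reads outside the miR-430 family, and its limit was 1697. On this scale the limit lay below the let-7 value of NCC at 16 hpf, though within its interval, and above the values of both non-NCC libraries.

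At 28 hpf, the ratio of NCC over non-NCC could only be bounded from above. The 164 non-NCC reads amount to 14.4 normalized counts, under the NCC limit of 34.2, and an equal level would have given 1.26 NCC reads. The upper end of the interval was 2.96-fold (log2 ratio 1.56), which takes in the 2.62-fold found at 16 hpf. For let-7a alone, with 114 non-NCC reads, an equal level would have given 0.877 NCC reads, and the interval ended at 4.28-fold. The other members detected in non-NCC had at most 20 reads, and the upper ends of their log2 ratios were 4.72 or more. At 28 hpf, 49 miRNAs were found in both libraries, 0 of them let-7 members, and neither a loss of let-7 from NCC nor a lasting excess was detectable. Whether the ratio differed between the stages was not tested.

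The gene table lists 18 precursor genes of the members, of which 14 have another miRNA gene within 25 kb. Of these, 8 lie beside another let-7 gene and 6 beside genes of miR-99, miR-100 or miR-125. The tables hold 11 rows of these partner miRNAs. Of the 8 found in both libraries at 16 hpf, 4 were over 2-fold in favour of NCC and 0 of non-NCC, beside 26.7% and 25.3% of all miRNAs found in both, and their median log2 ratio was 0.99. The exact binomial test called 2 of the 11 higher in NCC and 1 lower, beside 14.7% and 17.9% of all miRNAs tested, and nothing is read from these counts.

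Among the partners, miR-125b-5p had at 16 hpf 27 reads in NCC and 616 in non-NCC, a log2 ratio of 1.39 (from 0.77 to 1.94) like that of let-7a. miR-100-5p, whose genes lie beside 2 of the let-7a genes, had 312 reads in NCC and 21688 in non-NCC, a log2 ratio of -0.22 (from -0.39 to -0.06). miR-125b-2-3p, the opposite arm of the miR-125b precursor beside let-7a-4, had 24 and 102 reads and a log2 ratio of 3.81 (from 3.10 to 4.46). miR-99, beside both let-7c genes, had 4 and 468 reads (log2 ratio -0.97, from -2.86 to 0.39). The remaining partners found in both libraries at 16 hpf, miR-125a, miR-125c-5p, miR-125b-1-3p and miR-100-2-3p, had at most 12 NCC reads. Their log2 ratios were 1.03, 0.95, 1.34 and 0.39. The log2 ratios of the partners at 16 hpf thus lay between -0.97 and 3.81. At 28 hpf, miR-100-5p, miR-125b-5p and miR-125a were found in both libraries, with 12, 3 and 2 NCC reads. Their log2 ratios were 1.93, 1.78 and 0.56, and only the interval of miR-100-5p (from 0.96 to 2.75) lay above 0.

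By the distance between centred log2 profiles over the 4 libraries, the miRNAs most like the let-7 sum out of 98 candidates were miR-199-3p (distance 0.89), miR-199-5p (0.94) and miR-430a-3p (0.95). The profiles share the same libraries and depths, and the distances are a description. At 28 hpf, miR-199-3p was not found in NCC, against 334 reads in non-NCC. At 16 hpf its 468 reads in NCC stood against 6991 in non-NCC, a 3.99-fold higher normalized count in NCC.

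The study checked its sort by RT–qPCR of the NCC marker foxd3 and the non-NCC marker tbx5a. mRNAs such as sox10 are not part of these tables, so the sorted populations were set against miRNAs known from other cell types. At 16 hpf, the log2 ratio of the summed level was -1.14 for 2 neural miRNAs (miR-124-3p and miR-9-5p) and -2.02 for the vessel miRNA miR-126a-3p. The sum over 3 muscle miRNAs gave 0.44, but its members went apart, with miR-133a-3p at 2.50, miR-206-3p at -1.44 and miR-1 without an NCC read. The sum over 3 epithelial miRNAs gave -0.05, with miR-205-5p, which held nearly all their reads, at 0.00, miR-203a-3p at -2.55 and miR-200b-3p at -2.34. For the red blood cell miRNAs it was -1.06, but the 2 went apart: miR-451 had 43 reads in NCC and 304 in non-NCC (log2 ratio 3.08), and miR-144-5p had 2 and 5280 (log2 ratio -5.47). At 28 hpf, the NCC library had reads of 3 of these 11 miRNAs, miR-9-5p (21), miR-133a-3p (2) and miR-205-5p (68). With 1407 non-NCC reads, miR-205-5p was 6.29-fold higher in NCC at that stage (adjusted p = 3.85e-29 by the exact binomial test). The part of other cell types in the let-7 ratios was not tested.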

How the data were processed

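Small RNA of FACS-sorted NCC and non-NCC was sequenced, each population and stage as 1 library. The authors aligned the reads with Bowtie (GRCz11 per the labels), counted them with HTSeq and normalized the counts with DESeq2. They deposited normalized counts, a signal that is never negative, in 1 table per stage. Versions and the treatment of reads matching several places are not given in the sources used here. let-7 members differ by few bases and some have several precursor genes, so this treatment bears on their balance. Reads were recovered by dividing each value by the smallest nonzero value of its library (100% whole within 1e-06 reads). Ratios and tests were taken only within a stage. Shares of reads and the profile distances were set side by side across the stages, without a test.

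The members and lists were chosen with earlier results of these data known. All 10 members are named, with miRNAs of neighbouring genes, fixed cell type lists and the 3 miRNAs nearest in profile (at least 10 reads in both 16-hpf libraries, 0.5 reads added). Ratios have 95% Clopper-Pearson intervals. The count test was a two-sided exact binomial test on the recovered reads, with an adjusted p under 0.05 called. It called 111 of 340 miRNAs at 16 hpf and 19 of 239 at 28 hpf. It was checked on simulated reads with counting error only, so the check does not cover the spread between sorts. The tests compare libraries, not populations. Alternatives were scalings, thresholds, pseudocounts, reads divided by precursor genes and left-out members. The gene table is of another build (GRCz12tu) than the files, so it served for gene numbers and neighbours only and no positions are given. Sequences of the members were not analysed here. Python 3.11.15 (numpy 2.4.6, pandas 2.3.3, scipy 1.17.1, matplotlib 3.10.9) were used, and edgeR 4.0.16 under R 4.3.3 for TMM factors.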

Additional observations from a re-analysis of the deposited data

How the results depend on the processing

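At 16 hpf, the family ratio stayed above 2-fold in all 17 alternatives, with log2 ratios between 1.16 and 1.79. It left its interval with edgeR's TMM factors (1.17), with reads divided by precursor genes (1.79), without let-7f (1.16) and without let-7g (1.67). TMM moved all ratios at 16 hpf by -0.23, and at 28 hpf the shifts were 0.38 with RPM, 0.67 without miR-430 and 0.41 with TMM. Across 3 scalings, 26 of 27 ratios of single members stayed in their intervals and 0 changed sign. The exception was let-7a with TMM (1.12). The exact binomial test called 6 members higher in NCC with RPM (14.7% of all miRNAs tested), 6 without miR-430 (15.3%) and 5 with TMM, which lost let-7c-5p (12.6%, with 20.9% lower). A threshold of 4-fold in NCC was passed by 4 members. At 10 reads or more per library, 2-fold in NCC was exceeded by 4 of 5 members, beside 29.1% of 103 miRNAs. Of these members, let-7c-5p, let-7f and let-7i passed the filter only because their NCC reads were high, so nothing is read from this count. With TMM, 1 member, let-7j with 1 NCC read, was more than 2-fold higher in non-NCC. The 4-fold count and this TMM count have no share over all miRNAs beside them, so nothing is read from them. At 28 hpf, the upper end of the family log2 ratio was 2.24 without miR-430 in the totals, 3.07 with reads divided by precursor genes and 3.32 without let-7a. With 0.5 reads added, 5 members passed 2-fold in NCC at 28 hpf without an NCC read. This count also has no share over all miRNAs beside it. The family log2 ratio at 28 hpf was then -1.34. With the plotting pseudocount of the study (0.0438) it was -8.36, so that its value is set by the pseudocount. Outside miR-430, let-7 had 448 reads per 1000000 in non-NCC at 28 hpf, 1732 in NCC at 16 hpf and 638 in non-NCC at 16 hpf. With reads divided by precursor genes, let-7a held 32.2% of let-7 in non-NCC at 28 hpf. At 16 hpf it held 25.3% in NCC, below let-7f (37.4%), and 34.4% in non-NCC, below let-7g (35.9%). The let-7a reads at 16 hpf were not multiples of its number of precursor genes, whereas those of non-NCC at 28 hpf were. Leaving out let-7f with let-7g and halving even reads were chosen after seeing the data. Leaving out members 1 base from let-7a was not run, as no sequences were used. No paired analysis was possible because each group has 1 library.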
